A study of Drosophila melanogaster with 4 samples.

Results

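The 10 genes described here encode histone and protein deacetylases other than Hdac3, together with the corepressor partners Smr and ebi. They were found by their symbols, ignoring case, in the array's probe annotation. Each of the 10 was read by exactly 1 probe set, among 11982 genes named by the 13647 probe sets that carry a single symbol. The chosen genes were HDAC1, HDAC4, HDAC6, Sirt1, Sirt2, Sirt4, Sirt6, Sirt7, Smr and ebi.

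Gene expression was measured on Affymetrix arrays in wing imaginal discs of third-instar Drosophila melanogaster larvae raised at 25 degrees, with 1 array for each of 4 genotypes. All flies had a yw background and carried en-Gal4, a driver expressed in the posterior compartment of the disc, so that each array mixes cells with and without transgene expression. The control had 1 copy of en-Gal4 and no UAS transgene (en-Gal4/+), the PI3K discs had en-Gal4 over UAS-PI3K, the Hdac3 RNAi discs had en-Gal4/+ with 1 copy of UAS-Hdac3 RNAi, and the fourth genotype carried both transgenes. The number of discs or larvae behind an array is not given in the sources used here. No genotype was repeated, so no replicate error exists, no test was run, and precision is limited by the number of arrays.

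Histone deacetylases remove acetyl groups from lysines of histones and other proteins. The zinc-dependent enzymes (the HDACs) work largely inside corepressor complexes, whereas the sirtuins consume NAD with each reaction. Hdac3 acts within a complex built on the scaffold protein SMRTER, encoded by Smr, the fly counterpart of the vertebrate corepressors SMRT and NCoR, with the WD40-repeat protein Ebi as a further subunit. The series asks what depletion of Hdac3 does to growth driven by PI3K, and the levels of these genes show whether transcripts of related enzymes and of the partner proteins differed in the same discs. Hdac3 itself is not analysed here, so the knockdown was taken from the labels.

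Values are scaled intensities on a linear scale, or log2 ratios of them, and levels of different probe sets were not compared with each other. A floor of 26.9, set from odorant and gustatory receptor genes, marks the level below which a probe set was treated as unmeasured. All 10 genes were above it on all 4 arrays, as were 7301 genes in all. Among the 8 markers of the disc epithelium that were read (such as vg and nub), all were above the floor on every array. The PI3K array stood apart from the rest. Pairs of arrays that include it differed by an SD of 0.30 to 0.35 log2 over 7301 genes, against 0.22 to 0.23 for the other pairs. The 3' to 5' ratios of the Drosophila controls were mixed. For actin the ratio was 2.02 on the PI3K array against 2.85 to 3.36 elsewhere, and for eIF-4a 3.11 against 3.67 to 3.95. A GAPDH control was also lowest on the PI3K array (1.92), but another (5.65) lay within the range of the other arrays, 5.41 to 5.91. The ratio for 18S rRNA was highest on the PI3K array, with 4.95 against 4.77 to 4.87. Ratios of the 10 genes and medians of related lists are therefore also given by the contrast that leaves the PI3K array out. These contrasts are Hdac3 RNAi against control, and both transgenes against Hdac3 RNAi. The only repeat measure on an array comes from different probe sets of 1 gene, whose log2 ratios differed by an SD of 0.15 to 0.24 depending on the comparison.

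Smr had the widest range of the 10 genes. Its intensity was 1046 in control, 1390.0 in Hdac3 RNAi, 686 in PI3K and 1166 in discs with both transgenes. Both arrays with Hdac3 RNAi were above both arrays without it, and the PI3K array was the lowest. The highest and lowest arrays were 2.02-fold apart, a wider range than that of 97.6% of the 7301 genes. With Hdac3 RNAi alone Smr was 33.0% higher than in control (log2 ratio 0.41), and with Hdac3 RNAi added to PI3K it was 69.8% higher (0.76). PI3K came with a lower level in both backgrounds, by a log2 ratio of -0.61 against control and -0.25 when added to Hdac3 RNAi. The log2 effect of Hdac3 RNAi was larger with PI3K than without it by 0.35, more than the probe-set SD of 0.24 for this quantity. That departure from additivity uses the PI3K array, and 92.5% of genes had a lower value.

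Long genes as a class differed on the PI3K array, and Smr, with a span of 58416 bases in RefSeq, is among the 727 longest of 7271 genes. These 727 genes had a median log2 ratio of -0.24 in PI3K against control, and 12.8% of them were lower than Smr. In Hdac3 RNAi against control the same 727 genes had a median of 0.06, with 97.2% of them below Smr, and in both transgenes against Hdac3 RNAi they had -0.06, with 10.3% below. Their departure from additivity had a median of 0.18, with 74.0% of them below Smr. Markers of the disc epithelium, summed over the 8 read, had intensities of 10053 in control, 11108 in Hdac3 RNAi, 7688 in PI3K and 10569 with both transgenes. This order of arrays, which is also that of Smr and HDAC1, was shared by 5 of the 8 markers, the exceptions being hh, en and ci. Their part in the values of these genes, and that of gene span, was not tested. In whole discs fewer cells of a type and less RNA per cell cannot be told apart. The Smr probe set is of the _s_at type, which can match transcripts of more than 1 gene, and the span of Smr in RefSeq overlaps that of CG15725.

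**Figure D1:**
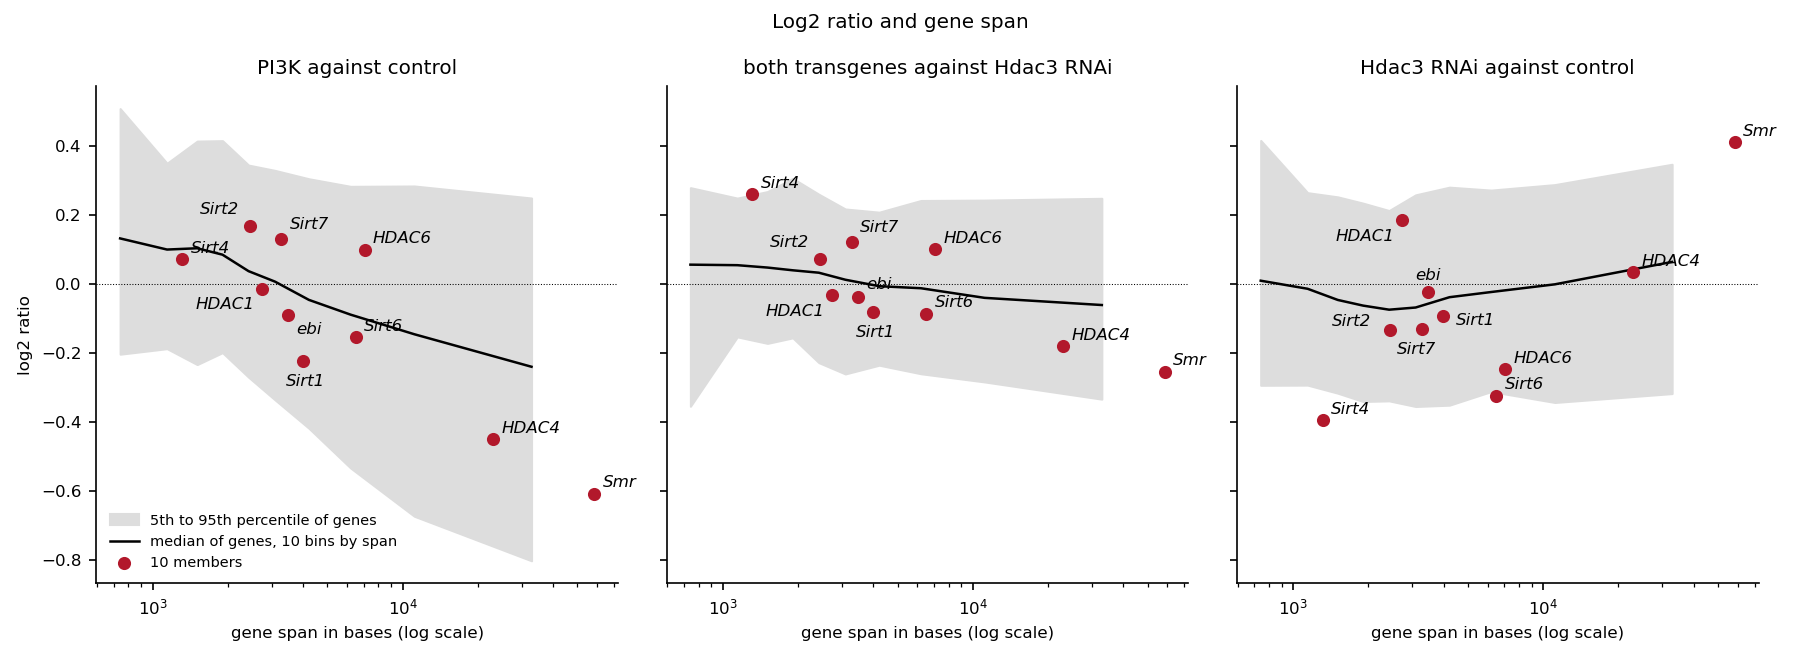
Log2 ratio (vertical axis) against gene span in bases (horizontal log axis) in PI3K against control, both transgenes against Hdac3 RNAi, and Hdac3 RNAi against control. Red points are the 10 genes, the black line is the median of genes in 10 bins by span, and the grey band runs from the 5th to the 95th percentile. Smr, with 58416 bases, lies at -0.61, -0.25 and 0.41.

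Ebi, the WD40-repeat partner of SMRTER that also takes part in EGF receptor and Notch signalling, had the narrowest range. Its transcript ebi had an intensity of 826 in control, 812 in Hdac3 RNAi, 776 in PI3K and 791 with both transgenes. The lowest and highest arrays were 1.06-fold apart, and only 7.56% of genes had a smaller range. Its log2 ratio was -0.02 with Hdac3 RNAi alone and 0.03 with Hdac3 RNAi added to PI3K. Both PI3K arrays were slightly below both others, by log2 ratios of -0.09 and -0.04, less than the probe-set SD in either comparison. The 2 genes of the SMRTER complex measured here therefore had unlike profiles, with a range of 1.02 log2 for Smr and 0.09 for ebi. The span of ebi overlaps that of CG13690 in RefSeq.

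HDAC1, also called Rpd3, is the class I deacetylase of the Sin3, NuRD and CoREST complexes and the closest relative of Hdac3 among the 10. Its intensity was 1332 in control, 1513 in Hdac3 RNAi, 1319 in PI3K and 1480.4 with both transgenes. Both Hdac3 RNAi arrays were above both others, and the arrays within each of these pairs were close together. HDAC1 was 13.6% higher with Hdac3 RNAi alone (log2 ratio 0.18, about the size of the probe-set SD) and 12.2% higher with Hdac3 RNAi in PI3K discs (0.17). Of all genes compared, 87.9% had a lower ratio than HDAC1 in the first comparison and 79.97% in the second. PI3K came with log2 ratios of -0.01 and -0.03. HDAC1 and Smr shared 1 order of arrays, from Hdac3 RNAi through both transgenes and control to PI3K, an order found in 7.72% of genes.

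HDAC4, a class IIa enzyme that shuttles between nucleus and cytoplasm under the control of kinases such as Sik3, was the deacetylase with the largest difference in PI3K discs. Its intensity was 81.0 in control, 82.9 in Hdac3 RNAi, 59.3 in PI3K and 73.1 with both transgenes. Both PI3K arrays were below both others. HDAC4 was 26.8% lower with PI3K than in control (log2 ratio -0.45, against a probe-set SD of 0.23) and 11.8% lower with both transgenes than with Hdac3 RNAi (-0.18). Like Smr it is among the 727 longest genes, whose medians in these comparisons were -0.24 and -0.06, and 24.9% and 20.9% of those genes were lower than HDAC4. Hdac3 RNAi came with a ratio of 0.03 without PI3K, which became -0.01 when the arrays were scaled to a common median, and 0.30 with PI3K. In the latter comparison the 727 longest genes had a median of 0.22.

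HDAC6, a mainly cytoplasmic deacetylase known for acting on tubulin, showed the opposite direction to HDAC1 with Hdac3 RNAi. Its intensity was 315 in control, 266 in Hdac3 RNAi, 338 in PI3K and 285 with both transgenes. Both Hdac3 RNAi arrays were below both others. It was 15.7% lower with Hdac3 RNAi alone (log2 ratio -0.25) and 15.6% lower when Hdac3 RNAi was added to PI3K (-0.24). With PI3K its ratios were 0.10 in both backgrounds, under the probe-set SD. The departure of HDAC6 from additivity was 0.002. It was -0.02 with quantile normalization, 0.04 with no scaling and 0.07 with median scaling, all under the probe-set SD of 0.24 for this quantity.

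**Figure D2:**
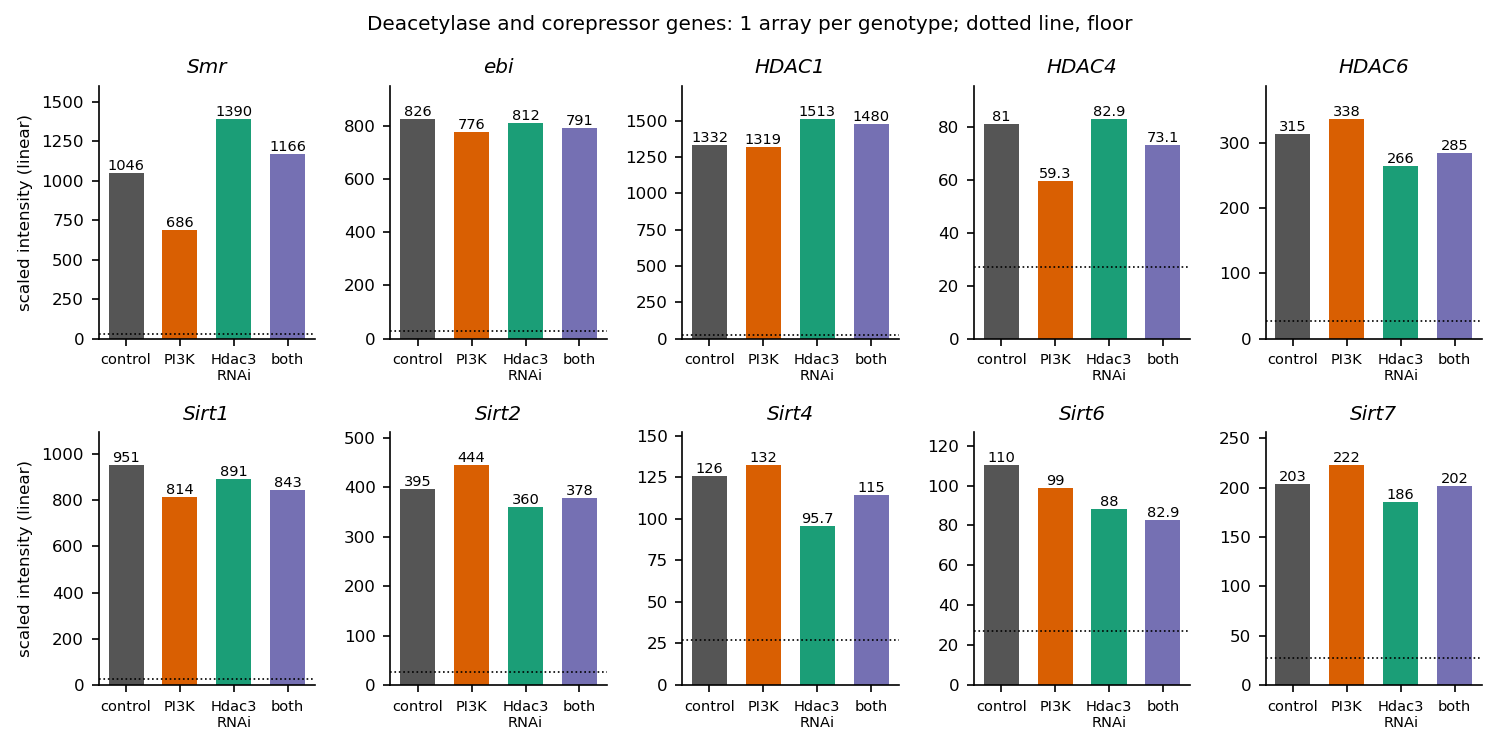
Scaled intensity (linear vertical axis from 0) of each of the 10 genes on the 4 arrays: control, PI3K, Hdac3 RNAi and both transgenes, 1 array each, with the floor of 26.9 dotted. Bars have no error because no genotype was repeated. Smr runs from 686 in PI3K to 1390.0 in Hdac3 RNAi, while ebi stays between 776 and 826.

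Among the sirtuins, 4 of 5 were lower on both Hdac3 RNAi arrays than on both others, as were 29.2% of all genes. Sirt4, a mitochondrial sirtuin, had the largest difference with Hdac3 RNAi alone. Its intensity was 126 in control, 95.7 in Hdac3 RNAi, 132 in PI3K and 115 with both transgenes. It was 23.9% lower with Hdac3 RNAi alone (log2 ratio -0.39), a ratio lower than that of all but 3.39% of genes, and 13.3% lower in PI3K discs (-0.21). PI3K added to Hdac3 RNAi came with 19.7% more Sirt4 signal (0.26), while PI3K alone gave 0.07, or -0.01 when arrays were scaled to a common median. The Sirt4 probe set is of the _s_at type.

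Sirt6, a chromatin-bound sirtuin, had intensities of 110.1 in control, 88.0 in Hdac3 RNAi, 99.0 in PI3K and 82.9 with both transgenes. It was the only gene of the 10 for which control was highest and the discs with both transgenes lowest. Its log2 ratio was -0.32 with Hdac3 RNAi alone and -0.26 when Hdac3 RNAi was added to PI3K. With PI3K its ratios were -0.15 against control and -0.09 against Hdac3 RNAi. With both transgenes it was 24.7% below control (-0.41), a ratio that only 3.00% of genes fell under. This comparison does not use the PI3K array, and Sirt6 was the 1 member of 10 beyond the probe-set SD of 0.19 in it, against a background of 23% of all genes.

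Sirt2, a mainly cytoplasmic sirtuin in mammals, had 395 in control, 360.1 in Hdac3 RNAi, 444 in PI3K and 378 with both transgenes. Sirt7, which in mammals is a nucleolar enzyme, had 203 in control, 186 in Hdac3 RNAi, 222 in PI3K and 202 with both transgenes. With Hdac3 RNAi alone both had log2 ratios of -0.13, and in PI3K discs Sirt2 had -0.23 and Sirt7 -0.14. All of these were under the probe-set SD. For Sirt7 the nearest arrays of the pairs with and without Hdac3 RNAi were only 0.01 log2 apart, and they overlapped after quantile normalization.

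Sirt1, the relative of yeast Sir2 that deacetylates histones and transcription factors, was the sirtuin whose arrays overlapped between discs with and without Hdac3 RNAi. Its intensity was 951 in control, 891 in Hdac3 RNAi, 814 in PI3K and 843 with both transgenes. Here both PI3K arrays were below both others, by log2 ratios of -0.22 against control and -0.08 against Hdac3 RNAi, each within the probe-set SD. With Hdac3 RNAi the ratios were -0.09 alone and 0.05 in PI3K discs. The overlap comes from the PI3K array, since both Hdac3 RNAi arrays were below control, as for the other sirtuins. The span of Sirt1 overlaps that of DnaJ-H in RefSeq.

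Across the 10 genes, none was 2-fold apart in any comparison. The median size of their log2 ratios, ignoring sign, was 0.16 with Hdac3 RNAi alone and 0.14 with PI3K alone, where all genes had 0.11 and 0.14. At a threshold of 1.5-fold in either direction, 1 of 10 was past it in PI3K against control, where 4.9% of 7436 genes were, and 1 of 10 in both transgenes against PI3K, where 4.96% were. Both times the gene was Smr. None of the 10 was past 1.5-fold in Hdac3 RNAi against control (2.4% of genes), in both transgenes against control (2.39%), in both against Hdac3 RNAi (1.53%) or in the departure from additivity (4.26%). The 2-fold backgrounds were 1.24%, 0.554%, 0.703%, 1.23%, 0.51% and 1.25% for PI3K, Hdac3 RNAi and both against control, both against PI3K, both against Hdac3 RNAi, and the departure. A smaller yardstick, the probe-set SD of each comparison, was passed by 5 of 10 genes with Hdac3 RNAi alone, where 28.9% of all genes passed it. These were HDAC1, HDAC6, Sirt4, Sirt6 and Smr. HDAC1 was only just past it, with 0.184 against an SD of 0.183. Its ratio was below that SD with no scaling (0.17), median scaling (0.14) and quantile normalization (0.17). In PI3K against control the probe-set SD was passed by HDAC4 and Smr, with a background of 29%.

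Comparing the arrays by the presence of Hdac3 RNAi, 7 of 10 genes did not overlap. HDAC1 and Smr were higher on both Hdac3 RNAi arrays, where 16.4% of 7301 genes were, and HDAC6, Sirt2, Sirt4, Sirt6 and Sirt7 were lower on both, where 29.2% were. Without the PI3K array 2 genes were above control on both Hdac3 RNAi arrays and 7 below it, with backgrounds of 29.9% and 42.3%. By the presence of PI3K, HDAC4, Sirt1 and ebi were lower on both arrays (background 17.1%) and none was higher on both (background 21.4%). Leaving out the PI3K array, 4 of 10 genes were lower with both transgenes than on either of the other arrays (background 29.5%). With 2 arrays against 2, an exact permutation test could not give a two-sided p under 0.333, and the arrays of a pair differ in genotype.

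The 2 backgrounds gave separate readings of each effect that share no array. The log2 effect of PI3K had the same sign in both backgrounds for 10 of 10 genes, or for 9 with arrays scaled to a common median, where the sign for Sirt4 differed. Among all 7301 genes 67.2% had the same sign. For Hdac3 RNAi the count was 8 of 10, or 7 with median scaling, against 68.4% of genes, and the exceptions were Sirt1 and ebi. The order of arrays from PI3K through control and both transgenes to Hdac3 RNAi was shared by 4 genes (HDAC6, Sirt2, Sirt4 and Sirt7). It is also the most frequent of the 24 possible orders, with 14.5% of genes. HDAC1 and Smr showed exactly the reverse order.

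**Figure D3:**
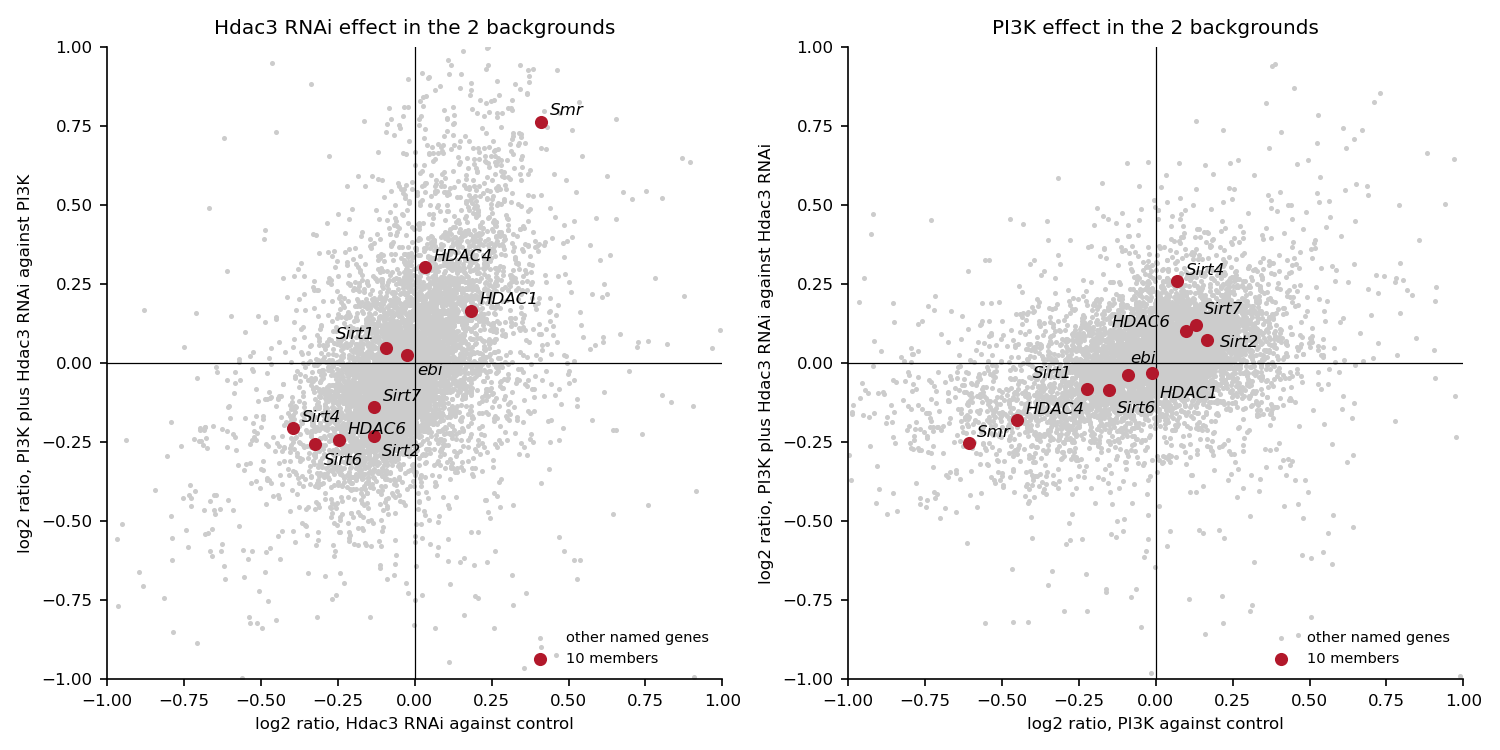
Log2 ratio without the other transgene (horizontal axis) against the log2 ratio in its presence (vertical axis), for Hdac3 RNAi on the left and PI3K on the right. Red points are the 10 genes, grey points the other named genes above the floor on all arrays, and genes beyond 1 log2 lie off the axes. For PI3K all 10 lie at the lower left or the upper right of the crossing axes, and Smr is the farthest of them from 0 in both panels.

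The median log2 ratio of the 10 genes was -0.05 in PI3K against control (0.02 over all genes) and -0.11 in Hdac3 RNAi against control (-0.03 over all genes). With both transgenes it was -0.10 against control, -0.06 against PI3K and -0.03 against Hdac3 RNAi, where all genes had -0.02, -0.03 and 0.02. The departure from additivity had a median of 0.06, against 0.01 over all genes, and ran from 0.02 to 0.13 under the alternatives. With median scaling the median over all genes was 0.08. Smr, HDAC4, HDAC6 and Sirt4 lie on the X chromosome. X-linked genes as a class had a median of -0.04 with Hdac3 RNAi alone and genes of chromosomes 2 and 3 had -0.03.

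Genes with profiles like those of Smr, ebi and HDAC1 were taken as the 3 with the smallest Euclidean distance between log2 values centred on each gene's mean over the 4 arrays. Nearest to Smr were bi, a T-box gene that responds to Dpp in the wing, at a distance of 0.07, the casein kinase gene CkIalpha (0.07) and CG33217 (0.08). Bi had 1059 in control, 1319 in Hdac3 RNAi, 664 in PI3K and 1156 with both transgenes, and like Smr it is among the 727 longest genes. CkIalpha had 1182, 1476, 775 and 1285 in the same order. CkIalpha, with a span of 4209 bases, and CG33217, with 6185, are not among the 727 longest. Smr had 7 genes within 0.1 of it. Within 0.1 of ebi lay 870 genes, with TM9SF2, Abi and CG7115 the nearest, and within 0.1 of HDAC1 lay 211, with Sh3beta, CG6654 and CG14715 the nearest. Distances were not scaled to the range of each gene, so these counts also depend on how wide that range is. The likeness rests on 4 arrays and is a description.

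The list of SMRTER and Ebi partners held 13 genes, for transcription factors, adaptors, other corepressors and proteins of linked pathways. Of these, 9 were analysed here, and all 9 had a negative log2 ratio in PI3K against control, as did 45.6% of all genes. Their median was -0.47, against 0.02 over all genes. They ran from -0.73 for H, the Hairless adaptor of Notch repression, to -0.12 for usp, the partner of the ecdysone receptor, which is within the probe-set SD of 0.23. At least 1.5-fold lower were 3 of the 9, where 3.12% of genes were. Markers of the disc epithelium were negative in the same comparison for 7 of 8 (median -0.30), and their part in these values was not tested. Added to Hdac3 RNAi, PI3K again came with 9 of 9 negative ratios (median -0.18), where 43.5% of genes were negative. The epithelium markers were negative there for 6 of 8 (median -0.12), and their part was again not tested. Both counts for the 9 partners were 9 under no scaling, median scaling and quantile normalization as well. With Hdac3 RNAi alone the median was 0.14, from -0.11 for phyl, an adaptor in photoreceptor and bristle fate, to 0.37 for gro, which encodes the corepressor Groucho. Of the 9 genes, 6 are among the 1818 longest genes, which had a median of -0.17 in PI3K against control and -0.04 in both transgenes against Hdac3 RNAi.

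Subunits of the complexes that hold HDAC1 formed 2 lists. In the Sin3 list 8 of 10 were analysed, of which 2 are among the 1818 longest genes, with medians of -0.03 in PI3K and -0.06 in Hdac3 RNAi against control. In PI3K they ran from -0.50 for Kdm5, a histone H3 lysine demethylase, to 0.11 for CG14220, listed as Sds3. In Hdac3 RNAi they ran from -0.25 for CG3815, listed as Pf1, to 0.16 for Sap30. Of the NuRD and CoREST list 6 of 8 were analysed, of which 4 are among the 1818 longest, with medians of -0.21 and 0.02, the latter -0.02 with median scaling. MTA1-like had the lowest ratio in PI3K (-0.39) and the highest in Hdac3 RNAi (0.27). The histone-binding subunit Caf1-55, which both lists hold, had 0.09 and -0.04. In both transgenes against Hdac3 RNAi the medians were 0.01 for the Sin3 list and -0.09 for the NuRD and CoREST list. All genes had 0.02 there.

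The Sik3 and HDAC4 pathway carries insulin and feeding signals to HDAC4 in the fly fat body. The genes listed also include foxo, CrebB and Crtc, which are not steps leading to HDAC4. The list had a median of -0.51 in PI3K against control, where all genes had 0.02. This was over 6 of 9 listed genes, since Sik2 was under the floor on all arrays and Lkb1 and Mef2 were not analysed here. The 14-3-3 protein gene 14-3-3zeta, whose product binds phosphorylated HDAC4-type enzymes, had the lowest ratio, -0.90, and CrebB, close to the floor with 29.0 in control, the highest, 0.24. With Hdac3 RNAi alone all 6 were positive (median 0.22), or 5 with arrays scaled to a common median, as were 42.6% of genes. They ran from 0.03 for Crtc, a CREB coactivator, to 0.59 for 14-3-3zeta. When Hdac3 RNAi was added to PI3K, 14-3-3zeta was at least 2-fold higher (1.10), as were 0.388% of genes. All 6 are among the 1818 longest genes, which had medians of -0.17 in PI3K and 0.02 in Hdac3 RNAi against control. Markers of the disc epithelium had medians of -0.30 (7 of 8 negative) and 0.21 (7 of 8 positive). In both transgenes against Hdac3 RNAi the list median was -0.14, with 4 genes negative and 2 positive. The part of gene span and of the markers in these values was not tested.

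Genes of NAD metabolism and sirtuin substrates gave single members with wider differences than any sirtuin, but no common direction. All 10 were read and 9 were above the floor, with Parp1 under it. Their median was -0.08 in PI3K, from -0.69 for the transcription factor gene foxo to 0.78 for AcCoAS, which encodes acetyl-CoA synthetase. AcCoAS had 79.4 in control, 58.3 in Hdac3 RNAi, 136 in PI3K and 51.3 with both transgenes, at least 2-fold lower with both than with PI3K (-1.41), as were 0.843% of genes. In Hdac3 RNAi the median was -0.03, or 0.02 after quantile normalization, between Naam at -0.73 and Naprt at 0.73, enzymes of adjacent steps in NAD salvage. Naam, the nicotinamidase that clears a product of sirtuins, had 99.1 in control, 59.9 in Hdac3 RNAi, 88.9 in PI3K and 66.1 with both transgenes, so both Hdac3 RNAi arrays were lower. Naprt had 84.0, 139, 79.4 and 83.2 in the same order, high on the Hdac3 RNAi array alone. In both transgenes against Hdac3 RNAi the list median was -0.11, with AcCoAS at -0.18 and foxo at -0.29.

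Lysine acetyltransferases, which oppose the deacetylases, had medians of -0.16 in PI3K and -0.12 in Hdac3 RNAi over 9 of 10 listed genes. CG1894, a MYST-family gene, had the lowest ratio in both (-0.56 and -0.43). The highest were Hat1 in PI3K (0.42), which acetylates newly made histone H4, and nej, the CBP homologue, in Hdac3 RNAi (0.10). None of the 9 was past 1.5-fold in either comparison, where 4.9% and 2.4% of all genes were. In both transgenes against Hdac3 RNAi, which leaves out the PI3K array, the median was 0.04. There 6 of the 9 were positive, as were 56.5% of genes, and CG1894 had 0.13.

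**Figure D4:**
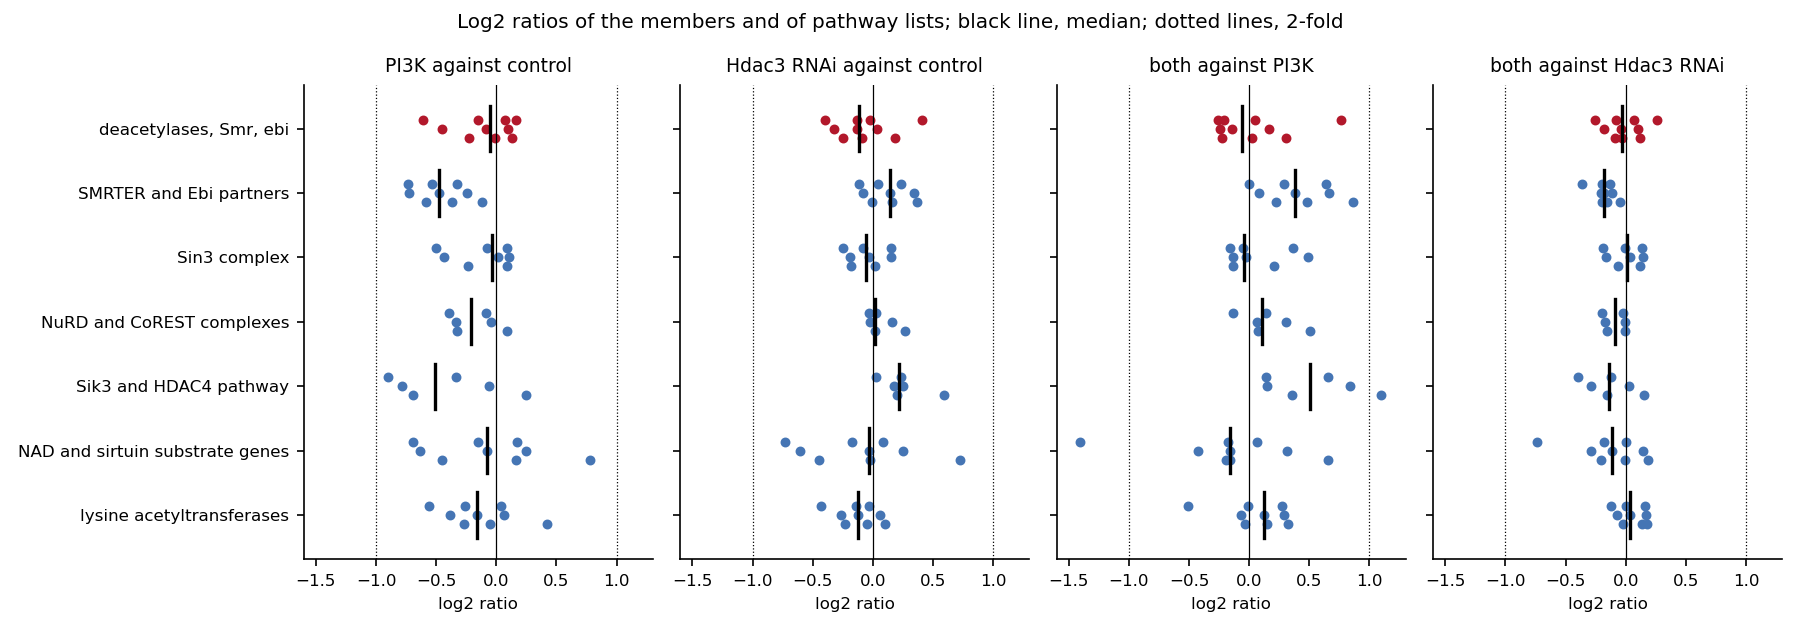
Log2 ratios (horizontal axes) of the 10 genes in red and of 6 lists of related genes in blue, for 4 comparisons with 1 array on each side. Points are genes above the floor on all arrays, black lines are medians and dotted lines mark 2-fold. SMRTER and Ebi partners have a median of -0.47 in PI3K against control and 0.14 in Hdac3 RNAi against control.

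Markers of fat body, salivary gland and gut had wider ranges over the arrays than any of the 10 genes. Summed over the 4 fat body markers read, intensity was 2987 in control, 6358 in Hdac3 RNAi, 12597 in PI3K and 784 with both transgenes, and the 5 salivary gland markers read had 607, 616, 4101 and 431. The 3 larval gut markers read had 1309, 1094, 3723 and 117 in the same order. In the fat body sums both transgenes was lowest and Hdac3 RNAi second highest. The 5 hemocyte markers had 811, 1035, 639.7 and 573, the 5 muscle precursor markers 1335, 1322, 1106 and 1158, the 3 tracheal markers read 5358, 6979, 6129 and 6978, and the 4 neuronal and glial markers 515, 503, 396 and 414. The sums use scaled intensities that were not raised to the floor. They include Sgs4, Jon65Aiv, nSyb and repo, which were under it on some or all arrays. The part of these tissues in the values of the 10 genes was not tested.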

How the data were processed

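The authors deposited 1 table of linear intensities for 18952 probe sets on 4 arrays, made with MAS5 per the submitters' processing notes, in a version and with settings not given there. Arrays were brought to a common 2% trimmed mean (281 to 287 as deposited). Detection calls were not used here. Values under a floor of 26.9, the 90th percentile of 125 odorant and gustatory receptor probe sets, were raised to it and log2 was taken. Genes were named from the array's probe annotation of 2016, and only probe sets with a single symbol were kept. A gene with several probe sets took the one with the highest mean. Gene spans, overlaps and neighbours came from the RefSeq table of Release 6. With 1 array per genotype, log2 ratios and counts were described and not tested, and percentages of genes are over those above the floor on the arrays compared. The genes named were the 10 members, the 3 nearest profiles to Smr, ebi and HDAC1, and the lowest, the highest and any 2-fold gene of each list. Members and lists were chosen with earlier results of these data known. The 7 alternatives were 3 scalings, floors of 10 and 50, the mean of probe sets, and probe sets ending only in _at. Calculations used Python 3.11.15 with numpy 2.4.6 and pandas 2.3.3, and were tested on simulated data.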

Additional observations from a re-analysis of the deposited data

Results flagged for a closer look

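For Sirt1 and ebi the log2 effect of Hdac3 RNAi had opposite signs without and with PI3K. Sirt1 had -0.09 against control and 0.05 in PI3K discs, a difference of 0.1424. For ebi the values were -0.02 and 0.03, a difference of 0.0514. The differences rest on 1 array per genotype and were not tested, and both are under the probe-set SD of 0.24 for this quantity.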

How the results depend on the processing

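Under no scaling, median scaling, quantile normalization, floors of 10 and 50 and the mean of probe sets, each of the 60 log2 values of the 10 genes moved by less than the probe-set SD of its comparison, at most by 0.08. The floors and the mean of probe sets moved none of them, since every gene had 1 probe set above 50 on all arrays. Signs changed only for values near 0: in 2 with no scaling, 4 with median scaling and 3 with quantile normalization. The medians over the 10 genes ran from -0.13 to -0.05 in PI3K against control and from -0.16 to -0.08 in Hdac3 RNAi against control. Under quantile normalization 1 gene, Sirt7, was above the other arrays on both PI3K arrays, against 0 otherwise. Probe sets ending only in _at leave 6 genes, without Smr, HDAC4, HDAC6 and Sirt4. Counts then fell by construction: 0 past 1.5-fold in PI3K against control and 0 in both against PI3K, 1 above and 3 below on both Hdac3 RNAi arrays, and 4 (Hdac3 RNAi) and 6 (PI3K) of the same sign in both backgrounds. Leaving out the PI3K array and the sign counts were added after the data were seen. No paired analysis was possible because each genotype has 1 array. The annotation gives each member 1 probe set, so no member has a second reading on an array.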

Other observations

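Genes next to Smr, Sirt7, Sirt6 and ebi on the chromosome, by the RefSeq order, gave a local comparison. Neighbours of the other members are not described here. CG4004, next to Smr, had 299.9 in control, 336 in Hdac3 RNAi, 252 in PI3K and 346 with both transgenes, so it too was lowest in PI3K and higher on both Hdac3 RNAi arrays. Cul5, a cullin gene next to Sirt7, had log2 ratios of -0.25 with Hdac3 RNAi alone and -0.23 in PI3K discs, where Sirt7 had -0.13 and -0.14. CG11843, on the other side of Sirt7, had -0.32 and 0.41 in these comparisons. The neighbour of Sirt6 is pont, which encodes a helicase subunit of the Tip60 acetyltransferase complex. It had 0.34 in PI3K against control, where Sirt6 had -0.15. On either side of ebi, AP-2alpha had -0.31 in PI3K against control and the ribosomal protein gene RpLP1 had 0.05, where ebi had -0.09. These neighbours were chosen after the values of the 10 genes were seen.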
